A study of Mus musculus with 2 samples.

Results

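miR-221-3p, miR-222-3p and miR-22-3p are 3 microRNAs (miRNAs), short RNAs that pair with messenger RNAs and lower their output, and each has been reported to target the messenger RNA of estrogen receptor alpha. They were taken by exact name from the non-control spots of an Agilent mouse miRNA array and are 3 of its 1881 mouse miRNAs, with 2 probes each. The arrays measured RNA of whole femur, bone and marrow together, from wild-type female C57BL/6 mice aged 9 months. The sham group had an operation that left the ovaries in place, and the OVX group was ovariectomised, which removes the main source of estrogen. Each group was a pool of 4 mice on 1 array, and the arrays shared 1 slide and 1 scan day; the time between surgery and collection is not given in the sources used here. With 1 array per group nothing could be tested, and what is called higher or lower below holds for these arrays alone. The error given is the standard error between spots within an array (spot SE), which holds no variation between mice.

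miR-221 and miR-222 are made from neighbouring hairpins on the X chromosome and share their seed, the bases 2 to 8 that choose targets. They repress the growth factor receptor Kit, the cell cycle inhibitor Cdkn1b (p27) and Esr1, the gene of estrogen receptor alpha, and in breast cancer cells the receptor in turn represses them. miR-221 has been reported to hold back osteoblast formation. miR-22 has another seed, lies within the non-coding host gene Mir22hg, and also lowers estrogen receptor alpha in breast cancer cells. In bone, the receptor carries much of the restraint that estrogen places on osteoclasts.

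The mature sequences show why miR-221-3p and miR-222-3p are treated as a pair and miR-22-3p apart. They are RefSeq entries (build GRCm38.p6), 5′ to 3′, with the seed in capitals; miR-1928 is added because it was the 1 other miRNA on the array whose RefSeq sequence had a seed of these members.
mmu-miR-221-3p: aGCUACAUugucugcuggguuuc
mmu-miR-222-3p: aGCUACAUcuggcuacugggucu
mmu-miR-1928: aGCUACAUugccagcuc
mmu-miR-22-3p: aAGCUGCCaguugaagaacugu
Read from the first base, miR-221-3p and miR-222-3p shared their first 8 bases and were identical at 11 of 23. miR-221-3p and miR-22-3p were identical at 5 of 22. The letters that pair with the seed of miR-221-3p and miR-222-3p are AUGUAGC, and those that pair with the seed of miR-22-3p are GGCAGCU. No target site was examined here.

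In the hairpins the measured 3p arm is given in capitals, which shows the 5p arm lying opposite in the lower-case part before it.
Mir221: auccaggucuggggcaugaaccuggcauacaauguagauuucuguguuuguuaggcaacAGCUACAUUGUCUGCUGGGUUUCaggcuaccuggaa
Mir222: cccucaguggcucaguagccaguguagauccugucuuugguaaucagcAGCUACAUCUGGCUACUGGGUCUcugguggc
Mir22: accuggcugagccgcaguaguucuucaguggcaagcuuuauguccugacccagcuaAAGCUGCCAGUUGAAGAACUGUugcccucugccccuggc
The RefSeq table places Mir221 and Mir222 next to each other with no gene between them.

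Each miRNA was read by a shorter and a longer probe, and the longer probe has 1 more base, in capitals, at its end as written. They are shown because the signal of a miRNA depended on which of its probes was read.
miR-221-3p shorter probe: gaaacccagcagacaatgt
miR-221-3p longer probe: gaaacccagcagacaatgtA
miR-222-3p shorter probe: acccagtagccag
miR-222-3p longer probe: acccagtagccagA
miR-22-3p shorter probe: acagttcttcaactggca
miR-22-3p longer probe: acagttcttcaactggcaG
In the array's annotation, on mouse build mm9, the miR-221-3p probes match chrX:18723483-18723501 and the miR-222-3p probes chrX:18724075-18724087, both on the minus strand and 573 bases apart. The miR-22-3p probes match chr11:75277278-75277295 on the plus strand. As annotated, the match of each of these probes spans 1 base less than the probe. The miR-221-3p probes pair with bases 4 to 23 or 5 to 23 of the mature sequence. The miR-222-3p probes are short, 13 and 14 bases, and pair with bases 8 to 21 or 9 to 21. They leave out the last bases of the RefSeq sequence and nearly all of the seed. The longest run that a miR-221-3p or miR-222-3p probe could pair with in the partner miRNA was 6 bases.

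The arrays differed in overall brightness before any miRNA was compared. A miRNA is called present where over 50% of the spots of at least 1 of its probes were well above background by the scanner software. By this rule the sham array held 202 present miRNAs and the OVX array 299, with 197 in common. Over probes that each array had well above background, the 75th percentile was 129 scanner units in sham and 261 in OVX, a gap of 1.01 on the log2 scale. Each array was scaled to this percentile, so a difference here is log2 OVX minus sham relative to the other miRNAs. The background is given by the negative control spots. They averaged 1.93 ± 2.81 scanner units (SD, 982 spots) in sham and 1.36 ± 2.86 (SD, 978 spots) in OVX, with 99th percentiles of 8.45 and 7.64. Signal over background, not read depth, limits precision here.

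miR-221-3p was present on both arrays and lower on the OVX array after scaling, at 0.558-fold. Before scaling its mean processed signals were slightly higher on the OVX array, by less than those of most other miRNAs. The shorter probe gave signals from 14.8 to 23.8 with a median of 18.6 over 14 sham spots. On the OVX array it gave signals from 14.5 to 27.1 with a median of 21.3 over 15 spots. The ranges of this probe overlapped, with 4 of the 15 OVX spots above the highest sham spot and 1 below the lowest. The longer probe gave signals from 22.01 to 36.3 with a median of 30.5 in sham and from 25.5 to 40.2 with a median of 32.7 in OVX, over 15 spots each. These ranges overlapped too, with 4 of 15 OVX spots above the highest sham spot, and its OVX mean was 1.101-fold its sham mean, against 1.15-fold for the shorter probe. Before scaling the OVX spot was the brighter at 11 of 14 shared positions of the shorter probe and 11 of 15 of the longer.

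After scaling, the spots of the 2 arrays separated for miR-221-3p. The shorter probe lay between -3.13 and -2.44 on the sham array and between -4.17 and -3.27 on the OVX array, on the scaled log2 scale. The longer probe lay between -2.55 and -1.83 on the sham array and between -3.35 and -2.70 on the OVX array. For each probe the ranges did not overlap. All 14 array positions read on both arrays for the shorter probe, and all 15 for the longer, were lower on the OVX array. How many of the 350 measured probes separate in this way, or are lower at every position, was not counted. The sham level of miR-221-3p was -2.44 (spot SE 0.04) and its OVX level -3.29 (spot SE 0.04), which puts the difference at -0.84 (spot SE 0.05). The probes gave -0.81 and -0.87, a gap within the SD of 0.11 found between probes of a miRNA over the 139 miRNAs with at least 2 measured probes. In bulk tissue, fewer cells that hold a miRNA and less of it per cell cannot be told apart.

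**Figure D1:**
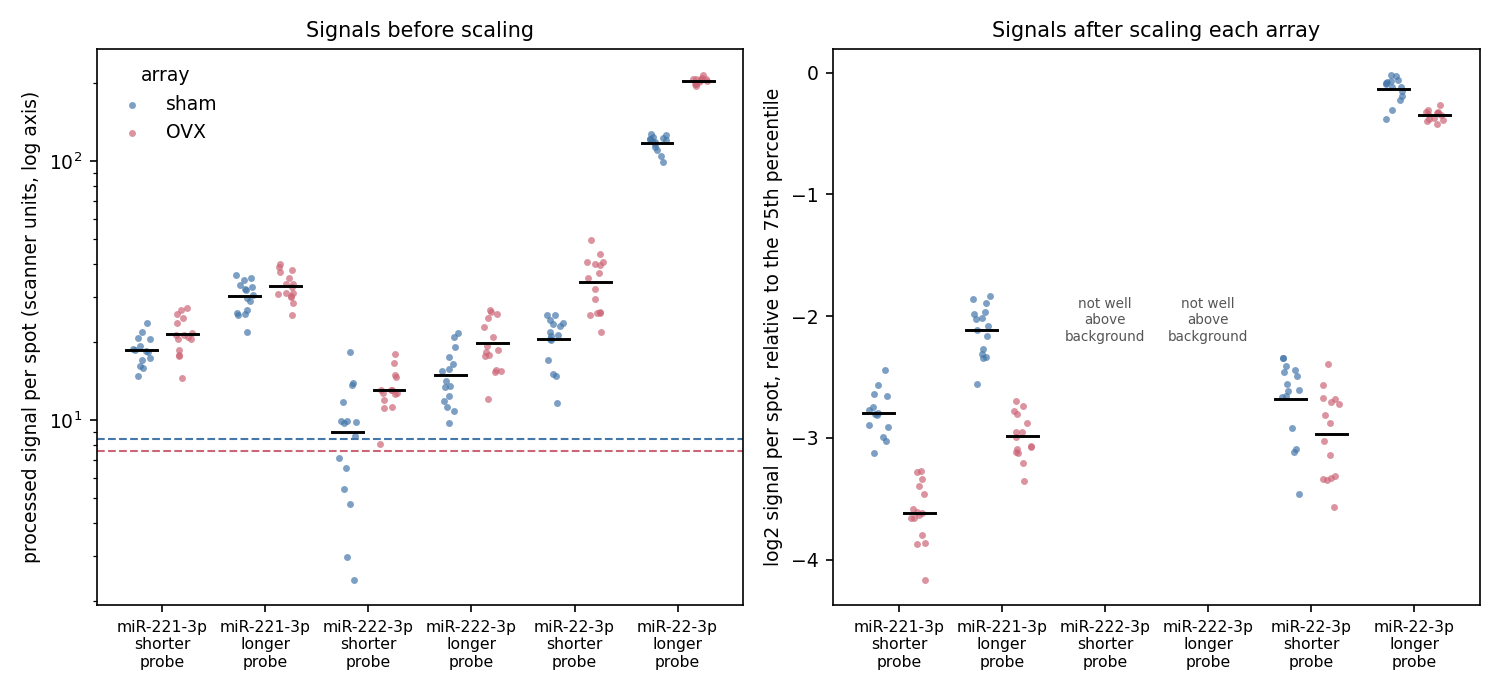
Processed signal of every usable spot of each probe on the sham and OVX arrays, before scaling (left, log axis, scanner units; dashed lines are the 99th percentile of the negative control spots of each array) and after scaling (right, log2 relative to the 75th percentile of the array); points are spots and black bars are means of the plotted values. The miR-221-3p spots overlap between arrays on the left and do not on the right, the miR-22-3p spots of the longer probe are apart on the left and overlap on the right, and miR-222-3p is not drawn on the right because neither array had it well above background.

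The place of miR-221-3p among the 197 miRNAs present on both arrays was near the low end. Of these, 29 were at least 1.5-fold lower in OVX (14.7%) and 22 at least 1.5-fold higher (11.2%). The split was 17 lower and 31 higher when scaled to the 75th percentile of all probes, 46 and 13 with the median, 2 and 108 with control probes, and 0 and 155 without scaling. miR-221-3p was the 11th lowest of the 197 and among the 29, and no member was among the 4 miRNAs (2.03%) at least 2-fold lower. The median difference of the 197 was -0.04 and their SD 0.52. miR-221-3p was also dim: with the 197 split into 3 groups of near-equal size by mean level it fell in the dimmest. There 17 of 66 (25.8%) were at least 1.5-fold lower and 4 of 66 (6.06%) at least 1.5-fold higher, and the median difference was -0.20. In the brightest group the counts were 7 of 66 (10.6%) each way, and in the middle group, which held miR-22-3p, they were 5 lower (7.69%) and 11 higher (16.9%) of 65. The part of dimness in the miR-221-3p difference was not tested. To be among the 197, a miRNA had to be present on the sham array too, which held 202 present miRNAs against 299 on the OVX array. Those present in OVX alone were left out of these ranks and shares, and the effect of that was not tested.

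The direction of miR-221-3p rested on the scaling. Without scaling its difference was 0.17, a 1.13-fold higher OVX signal, and with the arrays scaled to 28 control probes it was -0.15. Those control probes were brighter on the OVX array by 0.32 on the log2 scale, less than the miRNAs were. Such scalings add 1 constant to all miRNAs of an array, so the difference stayed 0.80 below the median of the 197 by construction, and that median was 0.97 without scaling and 0.65 with control probes. The authors' deposited table, whose names had to be moved by 1 row to match the scanner values, gave miR-221-3p 4.06 in sham and 3.11 in OVX on its log2 scale. That is a difference of -0.95.

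miR-22-3p was present on both arrays and was not past 1.5-fold in either direction after scaling. The shorter probe gave processed signals from 11.7 to 25.5 with a median of 21.3 on the sham array and from 21.97 to 49.6 with a median of 35.5 on the OVX array, over 15 spots each. The longer probe gave signals from 99.2 to 127.7 with a median of 120.2 over 14 spots on the sham array. On the OVX array it gave signals from 194.7 to 216.0 with a median of 206.0 over 13 spots. Before scaling the OVX spots of the longer probe were all above its sham spots, and those of the shorter probe overlapped in part. The OVX means were 1.66-fold and 1.74-fold the sham means before scaling, less than the factor of 2.02 by which the arrays differed at the 75th percentile.

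After scaling, the sham spots of the longer miR-22-3p probe lay between -0.38 and -0.02 and the OVX spots between -0.42 and -0.27, so the ranges overlapped. Of the positions read on both arrays, 11 of 12 were lower on the OVX array for this probe and 14 of 15 for the shorter. How common such counts are among the 350 measured probes was not determined. The level of miR-22-3p was -1.39 (spot SE 0.04) in sham and -1.64 (spot SE 0.045) in OVX. The difference was -0.25 (spot SE 0.06), or 0.843-fold, with -0.28 and -0.21 for the probes. It ranked 72nd lowest of the 197, inside the interquartile range of -0.36 to 0.28. The difference was 0.77 without scaling and 0.44 with control probes, and by construction it stayed 0.21 below the median of the 197 in both. In the authors' deposited table miR-22-3p was at 5.70 (sham) and 5.25 (OVX), or -0.45 apart.

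The probes of miR-22-3p, which differ by 1 base, had mean processed signals of 20.7 and 118 in sham and 34.3 and 205 in OVX. Levels are therefore not read as abundance, and the 3 groups by mean level above are groups of signal only. The place of miR-22-3p in the middle group rested on its longer probe, since its shorter probe was about as dim as those of miR-221-3p, whose means were 18.7 and 30.1 in sham and 21.6 and 33.1 in OVX.

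miR-222-3p, the seed partner of miR-221-3p, was not well above background on either array, so no fold is given. The shorter probe gave processed signals from 2.42 to 18.4 with a median of 9.80 over 15 spots on the sham array. On the OVX array it gave signals from 8.08 to 18.1 with a median of 12.9 over 14 spots. The longer probe gave signals from 9.77 to 21.8 with a median of 14.2 on the sham array and from 12.0 to 26.7 with a median of 18.6 on the OVX array, over 15 spots each. The ranges overlapped for each probe. Of the spots of the shorter probe, 1 of 15 in sham and 0 of 14 in OVX were well above background, and of the longer, 3 of 15 and 6 of 15.

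The miR-222-3p signal still stood apart from the negative controls. All 15 spots of the longer probe on each array were above the 99th percentile of the negative control spots. For the shorter probe this held for 9 of 15 sham spots and 14 of 14 OVX spots. Before scaling the OVX spot was the brighter at 13 of 14 shared positions of the shorter probe and 12 of 15 of the longer. On the scaled log2 scale the levels went the other way, from -3.84 in sham to -4.31 in OVX for the shorter probe. For the longer probe they were -3.11 in sham and -3.72 in OVX. In the authors' deposited table miR-222-3p was at 2.64 (sham) and 2.26 (OVX), or -0.38 apart. With the probes below the threshold, whether miR-222-3p differed in the way of its partner was not detectable.

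The gap between miR-221-3p and miR-22-3p does not depend on a constant added to an array. The difference of miR-221-3p was 0.594 log2 units below that of miR-22-3p, since the value for miR-221-3p minus miR-22-3p was -0.59 (spot SE 0.08). Of the 17 settings examined, 6, the reported one included, give this value by construction, and in the other 11 the gap was below 0, from -0.66 with the brightest probe only to -0.32 with normexp background correction. Such a gap shows that the 2 miRNAs differ unequally between these arrays, not which of them differs.

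**Figure D2:**
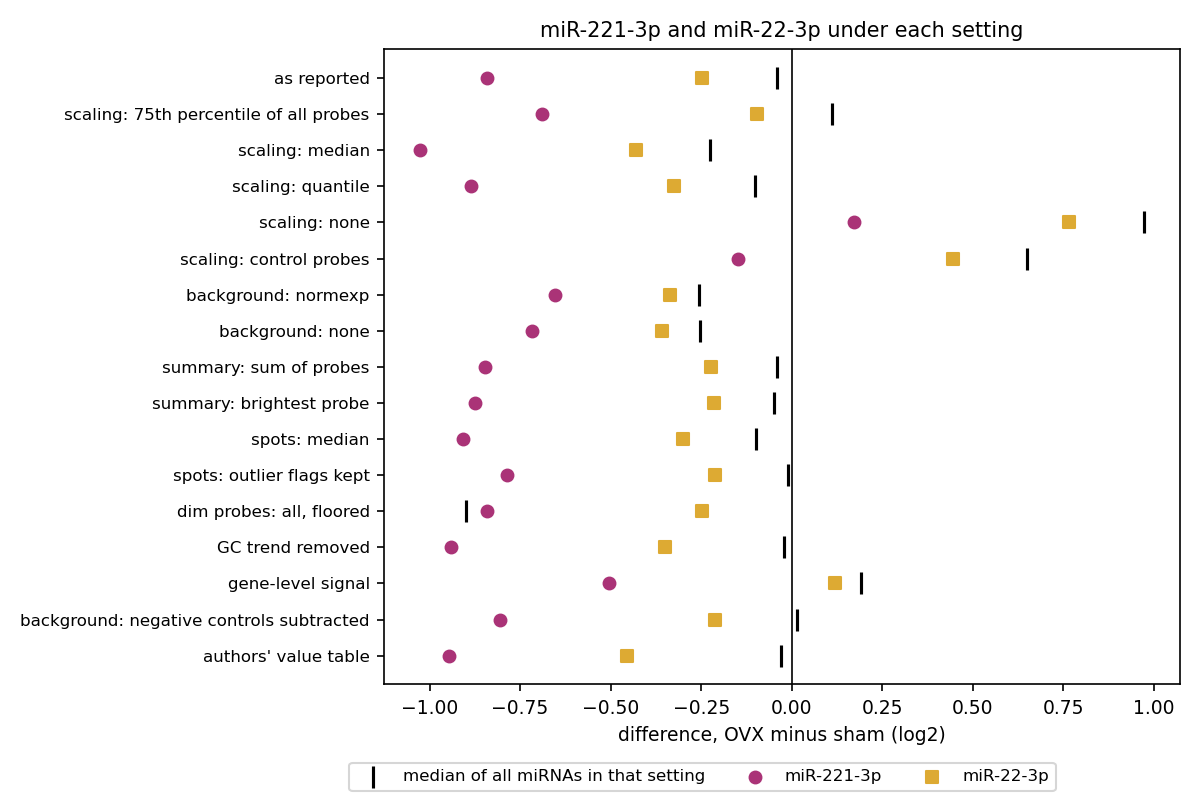
Difference OVX minus sham (log2) of miR-221-3p and miR-22-3p as reported and under each other way of processing; black bars give the median of all miRNAs in that setting (197, or 198 with outlier flags kept and 1881 with dim signals floored). Without scaling miR-221-3p is at 0.17 and miR-22-3p at 0.77, and their distance is the same by construction in every line that only adds a constant to an array.

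The other arms of these hairpins were at background. None of the 2 probes of miR-221-5p, the 3 of miR-222-5p or the 2 of miR-22-5p was well above background on either array, and no spot of them was. Their mean processed signals lay between -1.79 and 0.36 in sham and between -3.70 and 0.62 in OVX, below the 99th percentile of the negative controls. miR-1928, which has the miR-221-3p seed, had probe means of -0.92 and -1.83 in sham and of -1.71 and -0.54 in OVX. Among the miRNAs with this seed on the array, miR-221-3p was therefore the only 1 present.

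The members were set beside a list of 12 other miRNAs reported to target estrogen receptor alpha, drawn up with earlier results of these arrays known. Of the 12, 7 were present on both arrays and 5 on neither. The 5 were miR-18b-5p, miR-145a-5p, miR-193b-3p, miR-206-3p, which marks muscle, and miR-302c-3p, which marks pluripotent cells. Of the 7, 6 had a difference above 0 and 1 below it, against 93 of all 197 (47.2%) above 0. Their median was 0.25 against -0.04 for all 197, and 0 were past 1.5-fold in either direction (background 11.2% higher and 14.7% lower). At least 1.5-fold higher were 7 of the 7 without scaling (78.7% of all 197), 6 with control probes (54.8%), 4 with the gene-level signal (25.4%), 2 with the 75th percentile of all probes (15.7%) and 1 with the negative controls subtracted (12.7%). The count above 0 was 7 without scaling (98.0% of all 197), with control probes (89.3%) and with the gene-level signal (65.5%). It was 5 with the median scaling, normexp, no background correction, the median of spots or the GC trend removed. The share of all 197 above 0 in these settings ran from 27.9% (normexp and no background correction) to 48.7% (GC trend removed). The count above the median of all miRNAs in a setting was between 5 and 7.

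The 7 present come from the let-7 family and from the miR-17 cluster and its X-chromosome copy, which promote growth of blood cell progenitors. Other miRNAs of that cluster were not on the list and went both ways. Among them miR-17-3p differed by -0.58 (spot SE 0.06), miR-92a-3p by -0.40 (spot SE 0.03) and miR-20a-5p by 0.24 (spot SE 0.03). miR-19a-3p went from a sham level of -1.08 to an OVX level of -0.51 and so differed by 0.57 (spot SE 0.06). miR-19b-3p went from 0.86 to 1.29 and differed by 0.43 (spot SE 0.04). miR-20b-5p differed by 0.28 (spot SE 0.04) and miR-18a-5p by 0.20 (spot SE 0.06). The let-7 miRNAs, which favour differentiation, differed by 0.25 (let-7i-5p, spot SE 0.02), 0.06 (let-7a-5p, spot SE 0.03) and -0.22 (let-7b-5p, spot SE 0.02). let-7b-5p was the member of the list closest to miR-22-3p, from which it was apart by less than the spot SE. The 7 lay above miR-221-3p, as did 186 of all 197 (94.4%). In signal the 7 were also above miR-221-3p. miR-18a-5p, the dimmest of the 7, had levels of -1.71 in sham and -1.51 in OVX, against -2.44 and -3.29 for miR-221-3p. By mean level the median difference of the 197 was -0.20 in the dimmest group, 0.09 in the middle and 0.02 in the brightest. The part of signal level in the differences of the 7 was not tested.

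**Figure D3:**
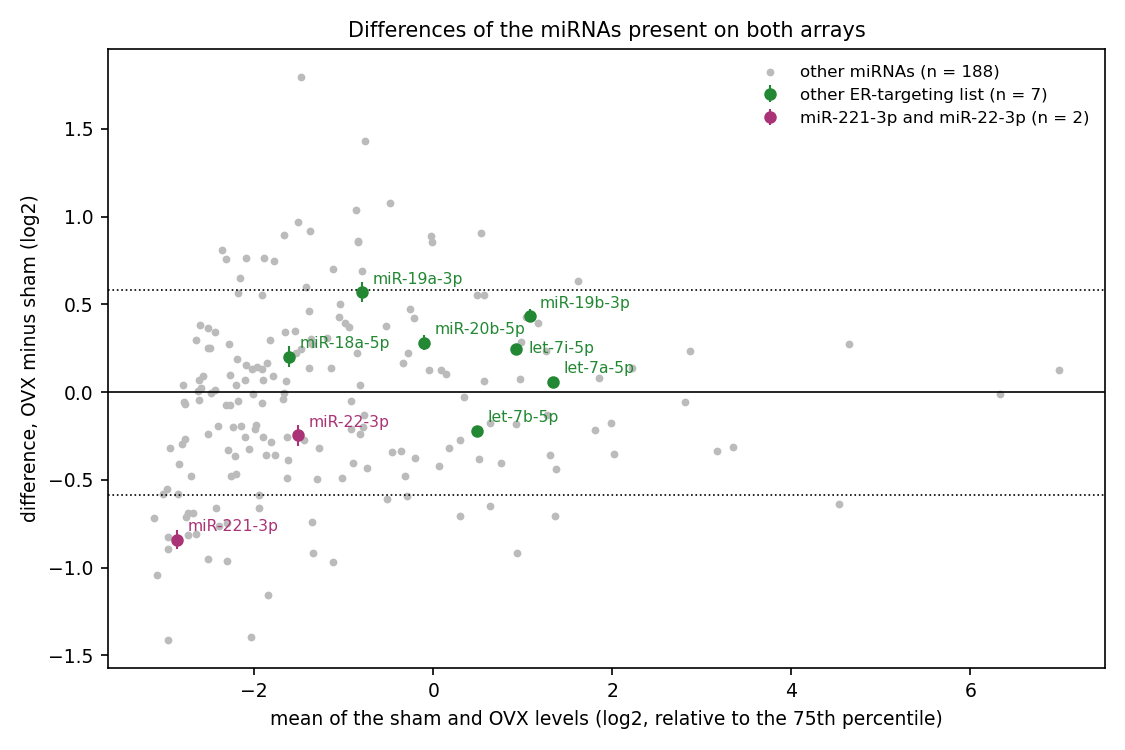
Difference OVX minus sham (log2) against mean level (log2 relative to the 75th percentile) of the 197 miRNAs present on both arrays; error bars are spot SEs, drawn for the named miRNAs only, and dotted lines mark 1.5-fold. miR-221-3p is among the dim miRNAs at -0.84, miR-22-3p is at -0.25, and 6 of the 7 other miRNAs of the list lie above 0.

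The miRNAs whose difference was nearest to that of miR-221-3p were miR-7226-5p (-0.83, spot SE 0.08), miR-3098-5p (-0.82, spot SE 0.06) and miR-7680-3p (-0.81, spot SE 0.09). All 3 were dim, with sham levels from -2.55 to -2.25. Those nearest to miR-22-3p were miR-130b-3p (-0.24, spot SE 0.03), miR-3470a (-0.24, spot SE 0.03) and miR-27b-3p (-0.25, spot SE 0.09). Likeness was the absolute gap between differences over the 2 arrays, so it rests on 1 value for each miRNA.

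Marker miRNAs of cells that a femur holds also differed between the arrays. The granulocyte miRNA miR-223-3p went from a level of 4.84 to 4.21, a difference of -0.63 (spot SE 0.02), in the same direction as miR-221-3p, while miR-223-5p was at background. The endothelial miR-126a-3p went the other way, from -2.27 to -1.51 (0.77, spot SE 0.04), while miR-126a-5p was at background. Of all 1881 miRNAs, 202 were present in sham and 299 in OVX. Of the 4 muscle miRNAs, 2 (miR-133a-3p and miR-133b-3p) were present in sham and 0 in OVX. Their summed signal, over the 75th percentile, was 0.512 in sham and 0.226 in OVX, with miR-206-3p within the negative control range on both arrays and miR-1a-3p on the sham array. All 4 red-cell miRNAs were present on both arrays, with a summed signal of 52.8 in sham and 63.4 in OVX on that scale. Their differences went both ways, with miR-451a at 0.28, miR-144-3p at 0.85, miR-144-5p at 0.97 and miR-486a-5p at -0.71.

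Lymphocyte miRNAs (miR-150-5p, miR-155-5p) were present as 1 of 2 in sham and 2 of 2 in OVX, where more of all miRNAs were present (299 against 202 of 1881). Their summed signals were 0.716 and 1.497 on the same scale. miR-150-5p differed by 1.43 (spot SE 0.14), a value from the 1 of its 2 probes that was well above background in sham. Cartilage was marked by both arms of miR-140, present on both arrays, with summed signals of 1.98 and 1.59. These also went apart, with miR-140-3p at -0.49 and miR-140-5p at 0.17. Of the stromal and smooth muscle miRNAs, miR-143-3p, miR-145a-5p and miR-214-3p were within the negative control range on both arrays. The fourth, miR-199a-3p, was present on the OVX array only. The part of cell composition in the differences of miR-221-3p and miR-22-3p was not tested.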

How the data were processed

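The authors deposited 1 scanner file of spot intensities per array, written by Agilent Feature Extraction, 10.7.1.1 per the file headers and 11.0.1.1 per the submitters' processing notes. Its processed intensity has had the background taken off and no normalization between arrays. Per the labels' protocols RNA was labelled with Cy3. The authors also deposited a table of log2 values whose normalization is not given in the sources used here (column medians -3.18 and -3.32). Spearman's correlation of that table with the gene-level signal was 0.04 (sham) and 0.06 (OVX) with names as printed and 0.99 for each with names moved by 1 row, so moved names were used.

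Control spots and spots with an outlier flag (1554 sham, 1635 OVX) were left out; 0 miRNA spots were saturated. The log2 of each probe's mean over spots was set against the array's 75th percentile, taken over 350 probes that were well above background on each array. A miRNA is the mean of such probes; all spots of a probe are technical repeats. Differences are ranked over all 197 miRNAs. Python 3.11.15, numpy 2.4.6, pandas 2.3.3, scipy 1.17.1 and, for normexp, limma 3.58.1 in R 4.3.3 were used. The steps were also tested on simulated spots. The median error of the unchanged miRNAs was taken off first, so that test could not judge the scaling. The members, lists and settings were chosen with earlier results of these data known. Named were the 3 members with every probe, their other arms, miRNAs with a member's seed, listed miRNAs present on an array, marker miRNAs, and the 3 nearest differences per present member. Mature sequences and hairpins were taken from RefSeq, which held them for 3 of 3 members.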

Additional observations from a re-analysis of the deposited data

How the results depend on the processing

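The spread used here is the SD of 0.11 between probes of a miRNA. Over 18 alternatives miR-221-3p was below 0 in 17 and at least 1.5-fold lower in 15. It reversed without scaling (0.17), and it moved with control probes (-0.15), the gene-level signal (-0.51), normexp (-0.65), the 75th percentile of all probes (-0.69), no background correction (-0.72) and the median (-1.03). miR-22-3p was below 0 in 15 of 18. It reversed without scaling (0.77), with control probes (0.44) and with the gene-level signal (0.12), and it moved with the 75th percentile of all probes (-0.10), the median (-0.43) and the authors' deposited table (-0.45). Not all of the 18 are separate checks. Flooring dim signals left each difference as reported, since the probes of these miRNAs were not floored. The brightest probe alone gives the value found without the shorter probe (-0.87 for miR-221-3p and -0.21 for miR-22-3p). Adding a constant to an array, as 4 of the 18 do, cannot move a miRNA against the median of all miRNAs. In the other 14 each was below that median in 13; with dim signals floored, where that median was -0.90, miR-221-3p was 0.06 and miR-22-3p 0.65 above it.

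The miRNAs at least 1.5-fold higher, 22 as reported, numbered 7 with normexp and 7 without background correction, 13 with the median, 50 with the gene-level signal, 108 with control probes and 155 without scaling. Those at least 1.5-fold lower, 29 as reported, numbered 0 without scaling, 2 with control probes, 17 with the 75th percentile of all probes, 46 with the median and 1669 with dim signals floored, where miRNAs floored on each array take the gap between the floors. The counts with the median, control probes, the 75th percentile of all probes and no scaling follow from adding a constant to an array. Normexp was run with an offset of 50 added to each signal. The cause of the other changes was not tested. Subtracting the negative controls, added after seeing the data, gave -0.81 for miR-221-3p and -0.21 for miR-22-3p. miR-222-3p had no value to vary. No paired analysis was possible because each group has 1 array, and leaving out a replicate was not possible for the same reason. Signals near background limit miR-222-3p, each probe of miR-221-3p and the shorter probe of miR-22-3p.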

Other observations

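The gene-level signal that the scanner software writes for miR-222-3p did not match its probes on the sham array. It was 13.5 there, while the total signals of its 2 probes summed to 5.09, a gap of 1.41 on the log2 scale. On the OVX array it was 9.11, equal to the sum. The software called miR-222-3p detected on both arrays. For miR-221-3p the gene-level signal (10.3 in sham and 15.1 in OVX) and for miR-22-3p (29.3 and 66.0) equalled the sum of these total probe signals on each array. The totals are not the processed signals used above. With the gene-level signal the difference was -0.51 for miR-221-3p and 0.12 for miR-22-3p, against -0.84 and -0.25 as reported.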
